A study of Danio rerio with 6 samples.

Results

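The unfolded protein response and the integrated stress response were followed through 9 of their regulators in zebrafish embryos that had received *zc3h12a* mRNA. The genes were taken by symbol from a list of 10 regulators: the stress sensors *ern1*, *atf6* and *eif2ak3*, the transcription factors *xbp1*, *atf4a*, *atf4b* and *ddit3*, the pseudokinase *trib3* and the phosphatase subunit *ppp1r15b*. Each of these 9 matched 1 Ensembl identifier among the 32057 genes of the files, and *eif2ak4* was not analysed here. All 9 passed the filter on low counts, as did 16126 genes in all.

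Cells that accumulate misfolded protein in the endoplasmic reticulum (ER) respond through parallel sensors in the ER membrane. Ire1, encoded by *ern1*, cuts *xbp1* mRNA so that an active transcription factor can be made, Atf6 is cleaved in the Golgi and enters the nucleus, and Perk, encoded by *eif2ak3*, phosphorylates the translation factor eIF2alpha. Phosphorylated eIF2alpha lowers protein synthesis while the translation of Atf4 rises, and Atf4 in turn drives genes such as *ddit3* (Chop) and *trib3*. Much of this signalling takes place by splicing, cleavage, phosphorylation and translation, and a count of reads per gene measures only the amount of each mRNA, with spliced and unspliced *xbp1* counted together.

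The embryos were of the AB/TL genotype and were injected at the one-cell stage with mRNA that encoded either wild-type zebrafish Mcpip1 (Mcpip1 WT) or its D112N form (Mcpip1 DN). The study describes the D112N form as catalytically inactive, with reference to earlier work on mutations of the catalytic center. Mcpip1 (Regnase-1) cleaves and so degrades selected mRNAs. Poly(A) RNA was sequenced at the shield stage, 6 hours after fertilization, in 3 libraries per group, each from a pool of viable embryos. Both groups carried injected *zc3h12a* mRNA fused to a P2A-mTurquoise reporter, and embryos without such mRNA were not analysed here. No label places the 3 pools of a group in separate clutches, so that p-values measure the spread between these pools.

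Total counts on genes lay between 17686041 and 24662219 per library. *Zc3h12a* (ENSDARG00000005271), endogenous and injected together, took 0.744%, 0.0883% and 0.120% of the reads on genes in the Mcpip1 WT pools (replicates 1, 2 and 3). The Mcpip1 DN pools gave 0.150%, 0.0727% and 0.0397%. The level of this mRNA was thus not matched between the pools, and Mcpip1 WT replicate 1 stood far above the other libraries. Without that library the log2 fold change of *zc3h12a* was 0.16, against 1.83 with all 6 (edgeR quasi-likelihood test). All 19 markers of the shield stage in a fixed list were counted in every library, and none was past the threshold defined below. For a single marker the highest library was between 1.65 (*ved*) and 5.36 (FOXD3) times the lowest, so that the pools were not alike in them. Whether the pools were of the same stage was not tested. Of 9 identifiers for genes of later differentiated tissues, 4 passed the filter.

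*Trib3* was the only one of the 9 regulators past the threshold, a fold change over 1.5 together with an unadjusted p under 0.05, and it was lower in Mcpip1 WT. It is 1 of 9, where 2.14% of all genes tested were called, 1.27% lower and 0.874% higher. The sensors, the Xbp1 and Atf4 transcription factors, *ddit3* and *ppp1r15b* did not pass the test in either direction. No regulator had an adjusted p under 0.05, and neither had any other gene in edgeR's test, in which 356 genes had an unadjusted p under 0.05. DESeq2 gave 1 gene with an adjusted p under 0.05 among the same genes. With every gene of at least 1 count tested, edgeR gave 9. None of these was a regulator described here, and *zc3h12a* itself was 1 of the 9 (adjusted p = 0.00846, edgeR). In the main test of edgeR, *zc3h12a* had groups that overlapped and an unadjusted p of 0.0391. That p reached up to 0.771 with 1 library left out. DESeq2 on the same genes as the main test gave *zc3h12a* an unadjusted p of 0.124. The median log2 fold change of the 9 regulators was -0.02, beside 0.01 over all genes tested, with 4 values above 0 and 5 below. In whole embryos, fewer cells of a type and less RNA per cell cannot be told apart.

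**Figure D1:**
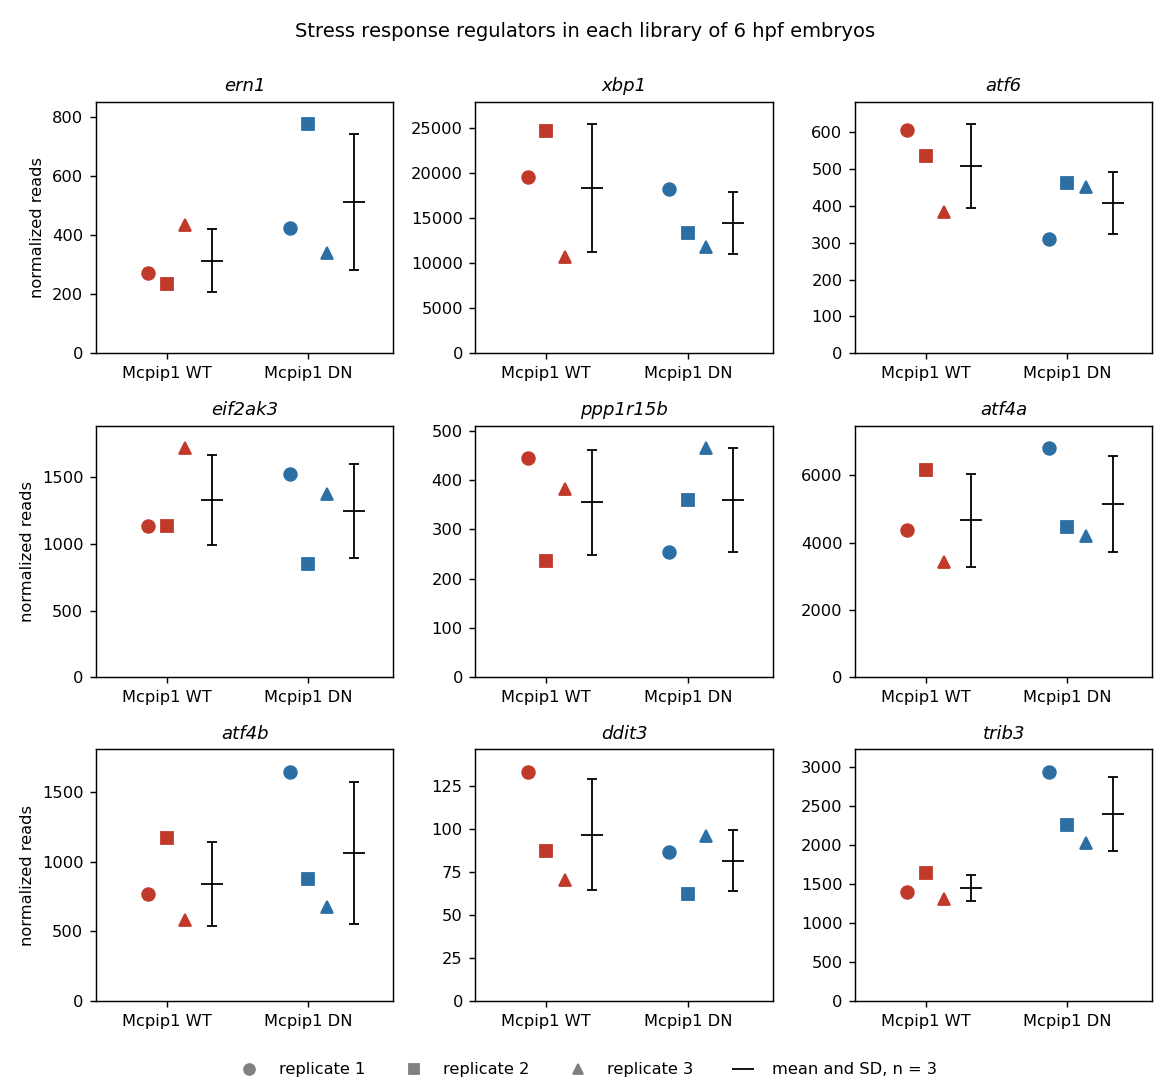
Normalized reads (y axis from 0, counts with each library brought to the average effective size) of the 9 regulators in each library of Mcpip1 WT (red) and Mcpip1 DN (blue). Symbols mark the replicate number, which is not known to pair libraries, and the black mark gives the mean and SD of 3 libraries. The groups are apart in *trib3* alone, with Mcpip1 WT at 1311 to 1639 and Mcpip1 DN at 2024 to 2935.

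*Trib3* (ENSDARG00000016200) encodes a Tribbles pseudokinase that is induced by Atf4 and Chop and, in mammals, restrains Akt and the activity of Atf4 itself. Below, normalized reads are counts after each library was brought to the average effective size, and values in a group are in the order of replicates 1, 2 and 3. *Trib3* held 1405, 1639 and 1311 normalized reads in the Mcpip1 WT pools. The Mcpip1 DN pools held 2935, 2256 and 2024. Every Mcpip1 WT library thus lay below every Mcpip1 DN library, as in 4.08% of all genes tested, and the library with most *trib3* was Mcpip1 DN replicate 1. The means were 1452 ± 169 and 2405 ± 473 (SD, n = 3). *Trib3* was 0.604-fold as high in Mcpip1 WT, a log2 fold change of -0.73 (standard error 0.25, 95% interval -1.28 to -0.18). Its p in the quasi-likelihood test of edgeR was 0.0144 before and 1.00 after Benjamini-Hochberg adjustment. The exact two-sided permutation p was 0.1, the smallest that 3 libraries against 3 allow. Without Mcpip1 DN replicate 1 the log2 fold change was -0.56, with an unadjusted p of 0.0761, and it stayed past the threshold without any one of the 5 other libraries. The study had selected *trib3* from these same libraries, so that its direction here is not independent evidence.

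*Ddit3* (ENSDARG00000059836) encodes Chop, a transcription factor that promotes cell death when ER stress lasts. Few reads fell on it, 131, 85 and 85 raw counts in the Mcpip1 WT pools against 63, 67 and 98. In normalized reads these were 133, 87.0 and 70.2 against 86.8, 62.0 and 96.2. The groups overlapped, with Mcpip1 WT replicate 1 highest and Mcpip1 DN replicate 2 lowest. The log2 fold change was 0.24 (standard error 0.56, unadjusted p = 0.674, edgeR), and the 95% interval, -0.998 to 1.49, was the widest among the 9. Without Mcpip1 WT replicate 1, the library with most *zc3h12a*, it was -0.05. Whether the amount of *zc3h12a* had a part in this was not tested.

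*Trib3* and *ddit3* lie at the same end of the Perk branch, and their balance was compared between the groups. The ratio of *trib3* to *ddit3* counts within a library, which does not depend on library size, was 10.6, 18.8 and 18.7 in the Mcpip1 WT pools, against 33.8, 36.4 and 21.1. Every Mcpip1 WT ratio was below every Mcpip1 DN ratio. The exact two-sided permutation p of the log2 ratio was 0.1, the smallest possible with 3 libraries against 3. *Trib3* alone was already apart between the groups, so that this is a description and adds no evidence. The nearest pair were Mcpip1 WT replicate 2 and Mcpip1 DN replicate 3.

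Zebrafish have a pair of *atf4* genes, and both encode the factor that phosphorylated eIF2alpha brings forward by translation. *Atf4a* (ENSDARG00000111939) held 4386, 6168 and 3437 normalized reads in the Mcpip1 WT pools, against 6798, 4460 and 4199 in the Mcpip1 DN pools. *Atf4b* (ENSDARG00000038141) held 768, 1168 and 585 in the Mcpip1 WT pools, against 1639, 876 and 672. The paralogs put the 6 libraries in the same order, from Mcpip1 DN replicate 1 and Mcpip1 WT replicate 2 at the top to Mcpip1 WT replicate 3 at the bottom, so that the groups overlapped in both. Their log2 fold changes were -0.14 (standard error 0.29, unadjusted p = 0.632, edgeR) and -0.34 (0.39, unadjusted p = 0.403). The 95% intervals were -0.79 to 0.50 and -1.19 to 0.52. Without Mcpip1 DN replicate 1 both values turned positive, at 0.11 and 0.12.

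Pearson's r of *atf4a* with *atf4b*, on log2 CPM (log2 of reads scaled to library size) over the 6 libraries, was 0.973. Of all genes tested beside *atf4a*, 98, or 0.608%, had its order of libraries, and 37 had an r with it at least as high as that of *atf4b*, with *atf4b* itself among both counts. The 6 points share the libraries and their make-up. The first principal component of all genes tested held 35.9% of the variance and also had Mcpip1 DN replicate 1 and Mcpip1 WT replicate 2 at one end, and *atf4a*, *atf4b* and *ppp1r15b* had an r of 0.944, 0.962 and -0.908 with it. These 3 regulators followed an axis that crossed the injected forms, and *xbp1* had an r of 0.771 with it. The pattern was common, since these 2 libraries were the highest in 11.9% of all genes tested, *atf4a* and *atf4b* among them. These 2 libraries were also highest in some shield markers, such as *tbxta* and *tbx16*, but not in others, such as *noto* and TP63. The markers were named after their values were seen. Read ratios of *atf4a* to *atf4b* lay between 4.15 and 6.25 and overlapped between the groups.

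Of the ER sensors, *ern1* had the largest log2 fold change. *Ern1* (ENSDARG00000013997), the kinase and RNase that splices *xbp1*, held 271, 235 and 435 normalized reads in the Mcpip1 WT pools. The Mcpip1 DN pools held 426, 775 and 339. Mcpip1 DN replicate 2 was high, and Mcpip1 WT replicate 3 lay above the 2 other Mcpip1 DN libraries. Its log2 fold change came to -0.71 (standard error 0.42, 95% interval -1.62 to 0.20) with an unadjusted p of 0.116 from edgeR, about as large as that of *trib3* but with a wider error. Without Mcpip1 WT replicate 3 it was -1.02 and past the threshold (unadjusted p = 0.0470, edgeR), and without Mcpip1 DN replicate 2 it was -0.30 (unadjusted p = 0.516, edgeR).

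*Xbp1* (ENSDARG00000035622), the mRNA that Ire1 splices, held 19580, 24669 and 10695 normalized reads in the Mcpip1 WT pools. The Mcpip1 DN pools held 18279, 13348 and 11763. The highest and the lowest library were both Mcpip1 WT. The log2 fold change was 0.34 (standard error 0.33, 95% interval -0.40 to 1.08, unadjusted p = 0.331, edgeR), and leaving out Mcpip1 WT replicate 2 or replicate 3 gave 0.07 or 0.61. Since *ern1* and *xbp1* tended to opposite sides, their ratio was taken within each library. It was 0.0138, 0.00955 and 0.0407 *ern1* reads per *xbp1* read in the Mcpip1 WT pools, against 0.0233, 0.0581 and 0.0289. These ratios overlapped, with an exact two-sided permutation p of 0.3. The pair was picked by its values in these same libraries, so that this p is a description only.

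*Atf6* (ENSDARG00000012656), the sensor that becomes a transcription factor once cleaved, held 605, 534 and 383 normalized reads in the Mcpip1 WT pools. The Mcpip1 DN pools held 311, 464 and 451. Mcpip1 WT replicates 1 and 2 were highest, and replicate 3 fell among the Mcpip1 DN libraries. Its log2 fold change came to 0.31 (standard error 0.34, 95% interval -0.44 to 1.07, unadjusted p = 0.383, edgeR).

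*Eif2ak3* (ENSDARG00000062139), which encodes Perk, held 1133, 1133 and 1716 normalized reads in the Mcpip1 WT pools. The Mcpip1 DN pools held 1522, 850 and 1375. Both groups spanned most of the same range. The log2 fold change was 0.09 (standard error 0.31, 95% interval -0.59 to 0.76, unadjusted p = 0.778, edgeR), and it took the other sign without Mcpip1 WT replicate 3 or without Mcpip1 DN replicate 2.

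*Ppp1r15b* (ENSDARG00000068128) encodes a subunit that brings protein phosphatase 1 to eIF2alpha and so reverses the action of Perk. It held 445, 237 and 382 normalized reads in the Mcpip1 WT pools, against 255, 359 and 464 in the Mcpip1 DN pools. The libraries that were high in *atf4a*, Mcpip1 WT replicate 2 and Mcpip1 DN replicate 1, were the lowest here. The group means were 355 ± 107 and 359 ± 105 (SD, n = 3), a log2 fold change of -0.02 (standard error 0.39, 95% interval -0.88 to 0.84, unadjusted p = 0.961, edgeR).

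**Figure D2:**
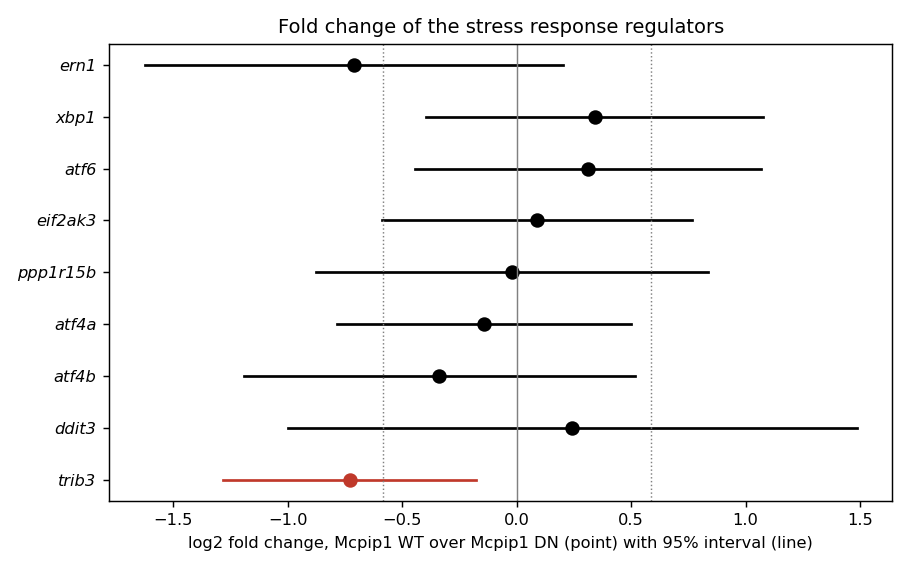
Log2 fold change of Mcpip1 WT over Mcpip1 DN (x axis, points) with its 95% interval (lines) from edgeR's quasi-likelihood fit of 6 libraries, for the 9 regulators. Dotted lines mark a 1.5-fold change in each direction. The interval of *trib3* (red), -1.28 to -0.18, leaves out 0, and those of the 8 other regulators include it.

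The intervals of the 8 regulators that did not pass the test all reached past a 1.5-fold change on at least one side. Those of *eif2ak3*, *ppp1r15b* and *ddit3* did so on both. Those of *xbp1* and *atf6* ended short of a 1.5-fold lower level in Mcpip1 WT, and those of *ern1*, *atf4a* and *atf4b* short of a 1.5-fold higher one. The highest library was between 1.95 (*atf6*) and 3.29 (*ern1*) times the lowest for a single regulator. On log2 CPM, the range over the 6 libraries was 0.96 for *atf6* and 1.71 for *ern1*, beside a median range of 1.47 over all genes tested. *Atf4b* at 1.48 and *ern1* were above that median, and the other 7 regulators were below it.

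**Figure D3:**
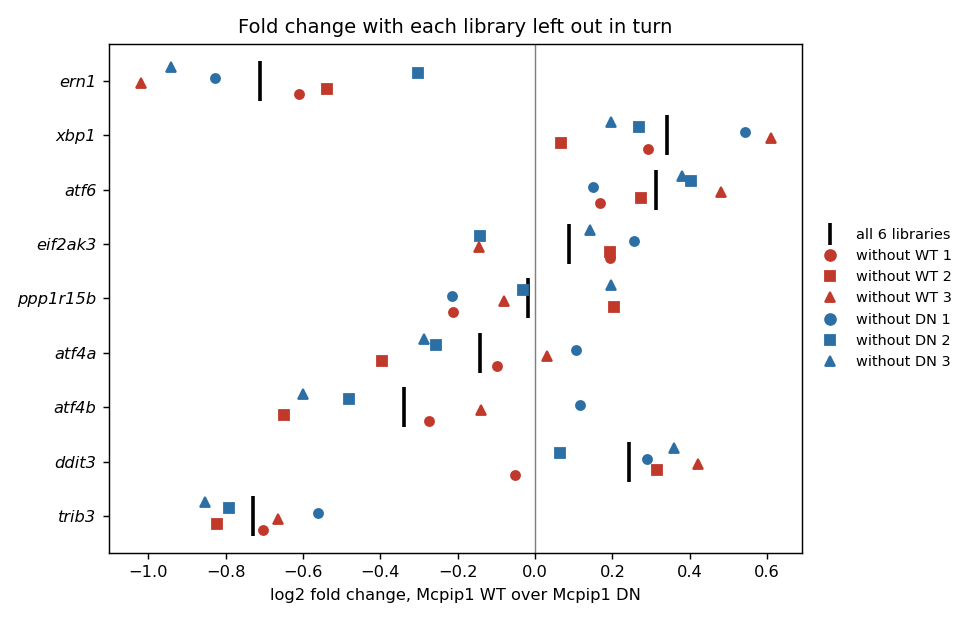
Log2 fold change of Mcpip1 WT over Mcpip1 DN (x axis) of each regulator with all 6 libraries (black bar) and with 1 library left out (red, a Mcpip1 WT library, and blue, a Mcpip1 DN library, with symbols for the replicate number). *Trib3* stays between -0.85 and -0.56, *ern1* between -1.02 and -0.30, and *eif2ak3*, *ppp1r15b*, *atf4a*, *atf4b* and *ddit3* cross 0.

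The direction was the same with each library left out in turn for *trib3*, *ern1*, *xbp1* and *atf6*, as the plot of values without 1 library shows. In the other 5 regulators it turned in at least 1 such fit.

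Genes whose libraries followed *trib3*, *ddit3* and *xbp1* most closely were sought among all genes tested by Pearson's r of log2 CPM over the 6 libraries, as a description. Closest to *trib3* were STX11 (ENSDARG00000042231), *hsd17b14* (ENSDARG00000054842) and *dnmt3ba* (ENSDARG00000052402), with an r of 0.994, 0.992 and 0.982. Closest to *ddit3* were PHGDH (ENSDARG00000001873), EXOSC9 (ENSDARG00000006392) and E2F5 (ENSDARG00000038812), with an r of 0.990, 0.986 and 0.986. PHGDH, the first enzyme of serine synthesis, is also in the list of Perk and Atf4 targets below. For *xbp1* they were RPS18 (ENSDARG00000100392), RRM1 (ENSDARG00000014017) and *acin1b* (ENSDARG00000026842), with an r of 1.00, 0.995 and 0.994. All of these values rest on the same 6 libraries, and the genes were picked for a high r, so that the values are not evidence of shared control.

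Among 40 other tested genes of the same pathways, 1 was past the threshold higher and 1 lower in Mcpip1 WT, beside 0.874% and 1.27% of all genes tested. The median log2 fold change was 0.07. In 4 of the 40 the Mcpip1 WT pools were all above, and in 1 all below, the Mcpip1 DN pools. Over all genes tested these shares were 3.97% and 4.08%. The gene called higher was EIF2S1 (ENSDARG00000052178), 1 of a pair of identifiers under that symbol for eIF2alpha, the protein that Perk phosphorylates. It held 1009, 836 and 640 normalized reads in the Mcpip1 WT pools, against 460, 468 and 307 in the Mcpip1 DN pools. The Mcpip1 WT pools all lay above the Mcpip1 DN pools, as in 3.97% of all genes tested. The log2 fold change was 1.01 (standard error 0.33, unadjusted p = 0.0107 and adjusted p = 1.00, edgeR with Benjamini-Hochberg adjustment). It fell just short of the threshold without Mcpip1 WT replicate 1 (0.84, unadjusted p = 0.0515, edgeR) and without Mcpip1 DN replicate 3 (0.82, unadjusted p = 0.0511). The other identifier, ENSDARG00000005827, had 11735 ± 2525 and 9635 ± 1523 normalized reads (SD, n = 3), a log2 fold change of 0.28 (unadjusted p = 0.299) with groups that overlapped. How the counting shared reads between these paralogs is uncertain.

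The lower one, NCK1 (ENSDARG00000074262), an adaptor protein, rested on 1 library, and its call was also lost without Mcpip1 WT replicate 1 or 2. It was counted 0, 6 and 12 times in the Mcpip1 WT pools, against 0, 320 and 16 times, and without Mcpip1 DN replicate 2 its log2 fold change was -0.54 (unadjusted p = 0.816, edgeR), against -4.23 with all libraries. The other NCK1 identifier, ENSDARG00000075369, held between 605 and 838 normalized reads per library. Its log2 fold change was -0.11 (unadjusted p = 0.713, edgeR), with groups that overlapped. The most counted of this list beside that second EIF2S1, CEBPB (ENSDARG00000042725), a partner of Chop, and *ppp1caa* (ENSDARG00000003486), a catalytic subunit of protein phosphatase 1, had log2 fold changes of -0.12 and -0.01 with groups that overlapped.

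Next to the regulators stand close relatives, named here after their values were seen. *Ppp1r15a* (ENSDARG00000069135), the stress-inducible counterpart of *ppp1r15b*, held 486, 596 and 543 normalized reads in the Mcpip1 WT pools, against 857, 307 and 324 in the Mcpip1 DN pools. Mcpip1 DN replicate 1 was again highest, and the other Mcpip1 DN libraries lay below all of Mcpip1 WT. Without that library the log2 fold change was 0.78 (unadjusted p = 0.0605, edgeR), against 0.13 with it. The other eIF2alpha kinases *eif2ak1* (ENSDARG00000093182), which senses haem in mammals, and *eif2ak2* (ENSDARG00000068729), which binds double-stranded RNA, had log2 fold changes of -0.09 and -0.56 with unadjusted p of 0.856 and 0.671. *Eif2ak2* had no count in Mcpip1 WT replicate 2, which allows up to 3 counts, and between 26 and 58 in the other libraries. ATF3 (ENSDARG00000007823), a stress-induced transcription factor downstream of Atf4, held 86.2, 65.5 and 111 normalized reads in the Mcpip1 WT pools, against 46.8, 48.1 and 31.4 in the Mcpip1 DN pools. The groups did not overlap, with Mcpip1 WT above as in 3.97% of all genes tested. Its log2 fold change, 1.06 with a standard error of 0.65 (unadjusted p = 0.133, edgeR), missed the threshold at these low counts. CREB3L1 (ENSDARG00000015793), another transcription factor among the other regulators, was apart in the opposite direction, as in 4.08% of all genes tested. It held 25.3, 23.5 and 21.5 normalized reads in the Mcpip1 WT pools, against 67.5, 52.7 and 64.8 in the Mcpip1 DN pools. The log2 fold change was -1.39 (standard error 0.78, unadjusted p = 0.103, edgeR).

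Of 39 tested targets of Perk and Atf4, none was past the threshold higher and 2 were lower in Mcpip1 WT, beside 0.874% and 1.27% of all genes tested. The median over the list was 0.22 on the log2 scale. Without Mcpip1 WT replicate 2 the lower genes numbered 5. Without Mcpip1 WT replicate 3 there were 3 higher and 1 lower, and without Mcpip1 WT replicate 1 none was called either way. Calls over all genes tested moved too, from 141 higher and 204 lower with all libraries. They were 512 lower without Mcpip1 WT replicate 2 and 291 higher without Mcpip1 WT replicate 3. Without Mcpip1 WT replicate 1 they were 69 higher and 75 lower. The 2 genes lower with all libraries were DDIT4 and GPT2. In both, every Mcpip1 WT library was below every Mcpip1 DN library, as for *trib3* and in 4.08% of all genes tested. In 6 others of the list every Mcpip1 WT library was above, as in 3.97% of all genes tested, and none of these was past the threshold. They were PSPH, *pycr1a* and *pycr1b*, enzymes of serine and proline synthesis, and the tRNA synthetases GARS1, NARS1 and MARS1, with log2 fold changes between 0.28 (*pycr1b*) and 0.63 (*pycr1a*), named because of these values. DDIT4 (ENSDARG00000037618), an inhibitor of mTORC1 that also responds to hypoxia, held 3355, 4036 and 3437 normalized reads in the Mcpip1 WT pools, against 7393, 4890 and 5012 in the Mcpip1 DN pools. Its log2 fold change was -0.68 (standard error 0.25, unadjusted p = 0.0205, edgeR), and it lost the call without Mcpip1 WT replicate 1 (-0.62, unadjusted p = 0.0676), Mcpip1 WT replicate 3 (-0.65, unadjusted p = 0.0517) or Mcpip1 DN replicate 1 (-0.46, unadjusted p = 0.124). GPT2 (ENSDARG00000012199), an alanine aminotransferase, had 5283, 7892 and 5789 against 12107, 11505 and 8940. Its log2 fold change was -0.78 (standard error 0.26, unadjusted p = 0.0122, edgeR), and -0.66 (unadjusted p = 0.0569) without Mcpip1 WT replicate 1. In these 2 genes and in *trib3* the highest library was Mcpip1 DN replicate 1.

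**Figure D4:**
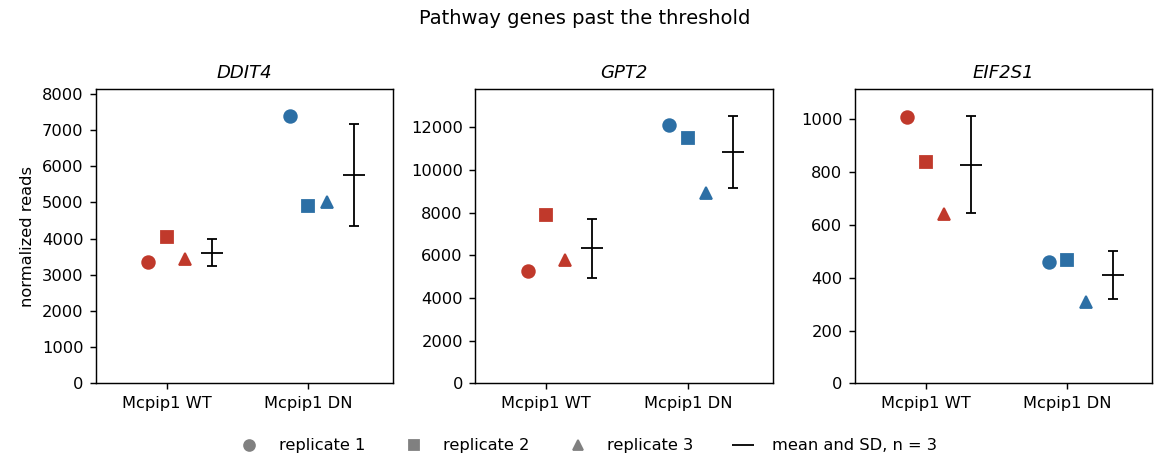
Normalized reads (y axis from 0) in each library for DDIT4, GPT2 and EIF2S1 (ENSDARG00000052178), the genes past the threshold with groups apart among the other regulators and the Perk and Atf4 targets. Symbols mark the replicate number and the black mark the mean and SD of 3 libraries. DDIT4 and GPT2 are lower in all Mcpip1 WT libraries (red) and EIF2S1, at 640 to 1009 against 307 to 468, is higher.

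The 39 Perk and Atf4 targets, DDIT4 and GPT2 included, had 24 positive and 15 negative log2 fold changes. Over all genes tested, 8187 were positive and 7939 negative. ALDH18A1 (ENSDARG00000099579), an enzyme of proline synthesis, and MARS1 (ENSDARG00000034396), methionyl-tRNA synthetase, which with GPT2 had the most counts of the list, had log2 fold changes of 0.12 and 0.47 with unadjusted p of 0.646 and 0.0931. CHAC1 (ENSDARG00000070426), which degrades glutathione, and ASNS (ENSDARG00000016375), asparagine synthetase, are common readouts of Atf4 and were named after their values were seen. CHAC1 had 2929 ± 793 normalized reads in Mcpip1 WT against 3347 ± 736 in Mcpip1 DN, and ASNS 327 ± 44.9 and 278 ± 57.3 (SD, n = 3). Their groups overlapped, with unadjusted p of 0.497 and 0.525 in edgeR's test. The ends of the list, named for these values, were GADD45A (ENSDARG00000043581) at 2.41 and SLC7A3 (ENSDARG00000061566) at -1.14 on the log2 scale. Both had few counts and groups that overlapped (unadjusted p = 0.0524 and 0.233, edgeR). The other identifiers under these symbols, ENSDARG00000104571 and ENSDARG00000020645, had log2 fold changes of 0.56 and -0.68.

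In a list of 56 tested genes of the ER that Xbp1 and Atf6 drive, 4 were past the threshold higher in Mcpip1 WT and none lower, beside 0.874% higher and 1.27% lower of all genes tested. These were *calr3a*, PDIA3, P4HB and EDEM2, which fold or dispose of ER proteins. The study had selected them from these libraries, so that their count is not independent evidence. EDEM2 (ENSDARG00000028448), alone among these 4, had groups that overlapped. It held 525, 161 and 235 normalized reads in the Mcpip1 WT pools, against 118, 132 and 168 in the Mcpip1 DN pools. Without Mcpip1 WT replicate 1, or without Mcpip1 DN replicate 2, none of the 56 was past the threshold in either direction, and without Mcpip1 DN replicate 3 there was 1. Without Mcpip1 WT replicate 2 or 3 there were 8 higher and 1 lower. Calls over all genes tested were 69 higher and 75 lower without Mcpip1 WT replicate 1, against 141 and 204 with all libraries. They were 512 lower without Mcpip1 WT replicate 2 and 291 higher without Mcpip1 WT replicate 3. With no limit on the fold, 356 genes had an unadjusted p under 0.05 with all libraries (edgeR). This number was 379 without Mcpip1 DN replicate 2 and 366 without Mcpip1 DN replicate 3. It was 144, 718 and 713 without Mcpip1 WT replicates 1, 2 and 3. In 6 of the 56 the Mcpip1 WT pools were all above, and in 2 all below, the Mcpip1 DN pools. Over all genes tested these shares were 3.97% and 4.08%. The median log2 fold change of the list was 0.25, and 0.15 without Mcpip1 WT replicate 1. With all libraries it had 41 positive and 15 negative values, beside 8187 and 7939 over all genes tested. HSPA5 (ENSDARG00000103846), the ER chaperone BiP that holds the sensors inactive in unstressed cells, held 18003, 13392 and 16973 normalized reads in the Mcpip1 WT pools, against 11563, 10084 and 12184 in the Mcpip1 DN pools. Every Mcpip1 WT library was higher, but its log2 fold change, 0.52 with a standard error of 0.25 (unadjusted p = 0.0625, edgeR), missed the threshold. HSP90B1 (ENSDARG00000003570), another ER chaperone and named after its values were seen, had a log2 fold change of 0.56, short of 1.5-fold, with an unadjusted p of 0.0367. The 2 genes with all Mcpip1 WT pools below were SEL1L (ENSDARG00000004581) and SERP1 (ENSDARG00000099439), also named after their values were seen. Their log2 fold changes were -0.52 and -0.37 (unadjusted p = 0.0725 and 0.138, edgeR). The other SERP1 identifier, ENSDARG00000076223, had a log2 fold change of 0.26. SEC61B (ENSDARG00000076568), a subunit of the channel into the ER and the third of the most counted genes of the list after P4HB and HSPA5, had 0.27 (unadjusted p = 0.329). Whether any of these lists differed from the regulators was not tested.

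**Figure D5:**
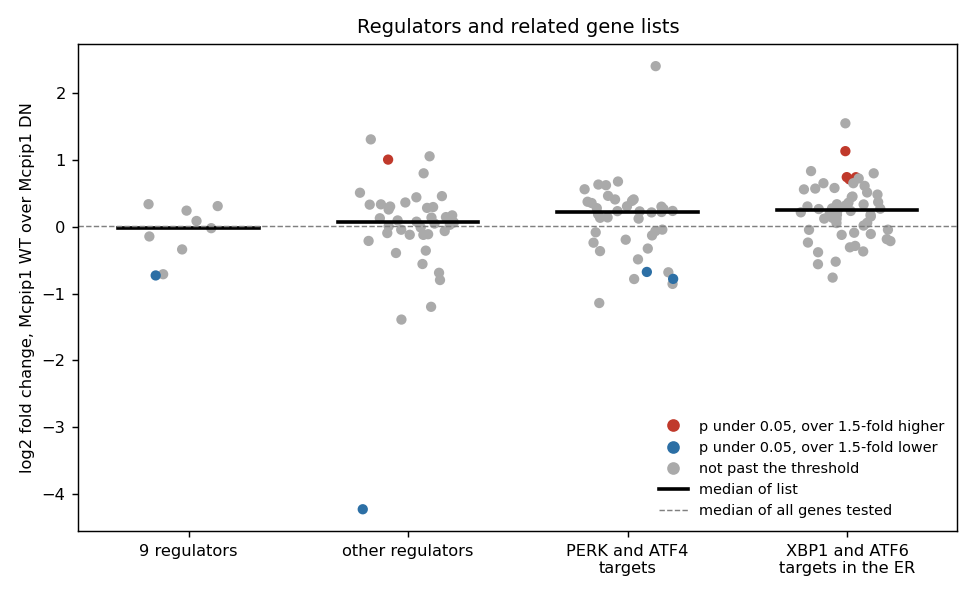
Log2 fold change of Mcpip1 WT over Mcpip1 DN (y axis) of each tested gene in the 9 regulators and in the lists of 40 other regulators, 39 Perk and Atf4 targets and 56 ER targets of Xbp1 and Atf6. Black lines give the medians, -0.02, 0.07, 0.22 and 0.25, the dashed line the median of all genes tested, 0.01, and colour marks genes past the threshold (red higher, blue lower).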

How the data were processed

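The authors called bases with Torrent Suite, mapped the reads to GRCz11 with STAR 2.7.10a, used bowtie2 2.4.4 for reads left unmapped, and counted reads per gene of the Ensembl annotation with htseq-count, and the counts were deposited without normalization. Its version, the Ensembl release and the strand setting are not given in the sources used here, so that antisense, overlapping and paralogous genes are uncertain. The 5 rows of reads given to no gene, 16.5% to 26.1% of all counts, were left out.

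From these counts, genes were filtered with filterByExpr (minimum count 10), scaled by TMM and compared between Mcpip1 WT and Mcpip1 DN with glmQLFit and glmQLFTest of edgeR 4.0.16 (limma 3.58.1, R 4.3.3), over all 6 libraries without covariates. Benjamini-Hochberg adjustment was over all genes tested. Normalized reads are counts divided by the effective library size, times its average over libraries. Standard errors and 95% intervals come from the fold change, the F statistic and its degrees of freedom. Log2 CPM (log2 of reads scaled to library size) used a prior count of 2. A count of 0 allows up to 3 counts, for counting error only. Total counts were 17686041 to 24662219 per library. On simulated counts of 15335 genes, the test called 44.4% of genes changed 2-fold past the threshold, and 4.26% of unchanged genes. The genes were simulated independently of each other, so that both shares may not hold for the real data.

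Groups came from the sample labels. Symbols came from a table of names with 28988 of the 32057 identifiers, and a missing paralog was taken under its bare name, with every identifier so named. Genes are named if they are regulators, *zc3h12a*, past the threshold in a pathway list, among its 3 with most counts, or among the 3 most like *trib3*, *ddit3* or *xbp1*. Further genes of the lists were named after their values were seen, as said where they appear. The members and lists were chosen with earlier results of these data known. The alternatives were DESeq2 1.42.0, its size factors, other filters, normalization without *zc3h12a*, a block for the replicate number, and fits that left out 1 library. No coordinates, gene lengths or sequences were used, so that levels were not compared between genes.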

Additional observations from a re-analysis of the deposited data

How the results depend on the processing

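With all 6 libraries, the 9 regulators kept their direction and their side of the threshold under all 7 alternatives (63 of 63 values), and *trib3* stayed between -0.74 and -0.72, with an unadjusted p between 0.0125 and 0.0185. With 1 library left out, 44 of 54 values did so, 8 took the other sign, *trib3* lost its call in 1 fit and *ern1* gained one in 1. The number of regulators called lower then went from 0 to 2, and their median log2 fold change from -0.14 to 0.14. The ranges over these 6 fits were -0.15 to 0.26 for *eif2ak3*, -0.40 to 0.11 for *atf4a*, -0.65 to 0.12 for *atf4b*, -0.052 to 0.42 for *ddit3* and -0.21 to 0.20 for *ppp1r15b*. They were -0.36 to 0.21 for CEBPB, -0.18 to 0.12 for *ppp1caa*, -0.044 to 0.43 for PHGDH, -0.036 to 0.18 for EXOSC9, -0.14 to 0.53 for E2F5, -0.15 to 0.78 for *ppp1r15a*, -0.50 to 0.21 for *eif2ak1* and -1.47 to 0.026 for *eif2ak2*. Over all genes tested, those called higher numbered 141 and those lower 204, with 296 and 328 for DESeq2 on every gene counted at least 1 time and 336 and 432 for edgeR on these genes. Without 1 library they went from 69 to 291 and from 75 to 512. Of the other regulators, 0 were called lower with DESeq2 on the same genes, with a minimum count of 30 (where NCK1 was not tested) and with the replicate block. Of the Perk and Atf4 targets, 1 was called higher with DESeq2 on the same genes, with DESeq2 on all genes and with edgeR on all genes, which also called 4 lower. Without 1 library, the other regulators had 0 to 2 called higher and 0 to 2 lower, the Perk and Atf4 targets 0 to 3 and 0 to 5, and the ER list 0 to 8 and 0 to 1. Except where said, the cause was not tested. The labels do not say whether the replicate numbers pair the libraries. Correlations of deviations from the group means were 0.006, -0.083 and 0.301 for same-numbered libraries. Those for different numbers lay between -0.36 and 0.291, and so few values cannot decide the question. With the number as a block *trib3* had a log2 fold change of -0.72 (unadjusted p = 0.0185), and NCK1 (-2.98), EDEM2 (0.95) and *dnmt3ba* (-0.58) lost their calls. On simulated counts at this depth and number of pools, 44.4% of 2-fold changes and 4.26% of unchanged genes were called. In the real data 2.14% of all genes tested were called. Genes were simulated independently of each other, without differences shared by a library, so that the 44.4% and the 4.26% may not hold for these data.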
